A study of Mus musculus with 6 samples.

Results

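The 44 protein-coding genes of the mouse that encode collagen alpha chains were examined for monomethylation of lysine 4 on histone H3 (H3K4me1) in the embryonic whisker pad. They were chosen by gene name, among 21755 protein-coding genes of the autosomes and the X chromosome, and were divided by how the proteins assemble into 11 fibrillar, 9 basement membrane, 9 network, 9 fibril-associated, 4 transmembrane and 2 other members. The study used CUT&Tag, in which an antibody tethers a transposase to the mark so that nearby DNA is cut out and sequenced. Whole whisker pads of wild-type B6/J2 embryos at e12 were dissociated to single cells, and each of 3 pads gave 1 H3K4me1 library and 1 control IgG library. The pad numbers in the titles name the H3K4me1 libraries, as replicates 1, 2 and 3. The IgG libraries were not analysed here, and the values below therefore carry no control background. No source states how many embryos or litters gave the pads.

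The labels of H3K4me1 replicates 2 and 3 go against each other, since their titles give whisker pad and their source name gives adult kidney, as for 4 of the 6 samples. The titles were used for grouping, and markers were checked in each list. All 12 facial mesenchyme markers carried a peak in all 3 replicates (1.93 at the share of genes of the same length), with Prrx2 and Twist1 above 97% of the peaks of each list. Of 14 adult kidney markers, Slc12a1 had a peak in all 3 replicates, Aqp2 had a peak in replicates 1 and 2, and the other 12, among them Umod, Nphs1 and Lrp2, had none (2.07 in all 3 at the same length). Of 12 surface epithelium markers, 8, 8 and 3 had a peak in replicates 1, 2 and 3, or 66.7, 66.7 and 25.0%. The shares at the same length were 27.2, 25.1 and 21.9%, so replicate 3 lay near its share. A peak in all 3 replicates was found at 3 of these markers (2.12 at the same length). Peaks in all 3 replicates were found at 2 of 8 endothelial (1.58), 3 of 8 muscle (0.91) and 0 of 8 nerve and glia markers (0.77), each with the number at the same length in parentheses. In replicates 1, 2 and 3, endothelial markers had a peak at 3, 2 and 2 of 8 (29.3, 25.6 and 25.5% at the same length). Muscle markers had it at 5, 5 and 3 (21.4, 19.5 and 13.7%), and nerve and glia markers at 2, 3 and 0 (20.2, 17.9 and 11.8%). Since the pad was profiled whole, a mark in few cells and a weak mark in many cells cannot be told apart.

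Collagens are proteins of 3 alpha chains wound into a triple helix, and they form most of the extracellular matrix of connective tissue, cartilage and bone. Fibrillar types make the load-bearing fibrils, fibril-associated types decorate them, type IV builds the sheet of the basement membrane, and transmembrane types sit in the cell surface and can be shed. H3K4me1 lies mostly at enhancers, active or poised, and on the flanks of active promoters, so its peaks show where candidate regulatory DNA lies and not how strongly a gene is transcribed.

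The window of a gene was its body with 5 kb flanks, and a peak sharing at least 1 bp with that window was assigned to the gene. The strength of a peak is given as its percentile, the percent of peaks of the same list with a lower total signal (the fragment pileup summed over the peak). A percentile near 0 is therefore still among the top 1% of signal blocks that the authors kept. Coordinates are of GRCm38 (mm10) and 1-based, and introns are numbered along the principal transcript of the GENCODE annotation. Because long genes catch more peaks, the share among genes of the same length is given beside counts of genes, taken from 20 equal-sized length classes. With 1 group of 3 samples the design holds no contrast, and no test was made.

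The strongest regions of 5 of the 6 genes with the highest mean percentile are shown as examples of the DNA under the strongest peaks. A region is the union of overlapping peaks of the 3 lists. Each sequence holds 200 bases of the plus strand around the median position of highest pileup, with capitals at the bases of highest pileup of any replicate that fell inside them. They came from the RefSeq copy of GRCm38 and lie at chr11:51469405-51469604 for Col23a1 (intron 2), chr5:136863424-136863623 for Col26a1 (intron 1), chr4:130047242-130047441 for Col16a1 (upstream of the start site), chr1:90842991-90843190 for Col6a3 (intron 1) and chr4:63230247-63230446 for Col27a1 (intron 3).
Col23a1: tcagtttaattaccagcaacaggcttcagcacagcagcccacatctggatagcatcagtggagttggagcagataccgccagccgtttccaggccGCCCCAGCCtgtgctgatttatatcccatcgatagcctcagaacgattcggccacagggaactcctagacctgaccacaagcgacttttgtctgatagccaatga
Col26a1: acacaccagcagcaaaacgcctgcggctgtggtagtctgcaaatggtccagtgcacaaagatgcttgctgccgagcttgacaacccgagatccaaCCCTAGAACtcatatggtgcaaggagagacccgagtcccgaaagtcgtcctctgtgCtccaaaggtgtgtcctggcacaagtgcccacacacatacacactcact
Col16a1: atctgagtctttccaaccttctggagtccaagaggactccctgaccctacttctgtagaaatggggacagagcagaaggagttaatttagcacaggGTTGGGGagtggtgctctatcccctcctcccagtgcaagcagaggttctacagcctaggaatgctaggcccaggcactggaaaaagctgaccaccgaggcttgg
Col6a3: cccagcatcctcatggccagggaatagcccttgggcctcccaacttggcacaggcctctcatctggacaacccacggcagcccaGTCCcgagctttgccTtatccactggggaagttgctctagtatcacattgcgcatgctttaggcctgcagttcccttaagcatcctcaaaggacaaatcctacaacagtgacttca
Col27a1: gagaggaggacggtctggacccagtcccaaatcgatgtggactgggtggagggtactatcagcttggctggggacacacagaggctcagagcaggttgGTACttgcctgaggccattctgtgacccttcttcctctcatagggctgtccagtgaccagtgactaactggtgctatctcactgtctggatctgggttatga
The GC content of these windows ran from 52.5 to 55%. The positions of highest pileup of the 3 replicates lay within 161, 56 and 166 bp of each other in the regions of Col23a1, Col26a1 and Col6a3, but were spread over 2083 bp for Col16a1 and 7958 bp for Col27a1, where the window stands for the median replicate alone.

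Col2a1, the gene of cartilage collagen II, was added for its compact gene with a pair of strong regions, a choice made after its values were seen. Its windows lie at chr15:97991329-97991528 in intron 16, where the window also reaches into coding exons, and at chr15:98001264-98001463 in intron 1, where it overlaps 1 annotated exon. The gene is on the minus strand, and the letters are those of the plus strand.
Col2a1 intron 16: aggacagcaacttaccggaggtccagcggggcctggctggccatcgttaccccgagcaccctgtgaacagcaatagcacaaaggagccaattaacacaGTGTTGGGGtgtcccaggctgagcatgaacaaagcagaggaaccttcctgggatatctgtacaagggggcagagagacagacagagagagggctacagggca
Col2a1 intron 1: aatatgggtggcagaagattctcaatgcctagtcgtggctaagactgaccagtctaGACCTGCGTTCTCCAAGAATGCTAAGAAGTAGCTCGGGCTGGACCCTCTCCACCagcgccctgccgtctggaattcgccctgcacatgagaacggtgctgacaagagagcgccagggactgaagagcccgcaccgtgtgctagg
The positions of highest pileup agreed to within 133 and 20 bp between replicates. The letters CTTTGAT or CTTTGTT (LEF/TCF, either strand) occurred in the windows of 3 of 59 collagen regions with a peak in all 3 replicates (5.08%), against 6.94% of the 8916 such regions of the whole series. The letters ACAATG (SOX, either strand) occurred in 2 of 59 (3.39%), against 7.73%. Only these letters were searched, so the names LEF/TCF and SOX label sets of letters and do not separate the 2 families of factors. Neither set of letters contains the other. A match is a description and not a site, and it does not tell which factor could bind. 1 match to CTTTGAT or CTTTGTT lay in the Col2a1 intron 16 window.

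Collagen genes carried H3K4me1 peaks more often than protein-coding genes as a whole and more often than genes of the same length. A peak in all 3 replicates was found at 25 of the 44 genes (56.8%), against 15.5% of all protein-coding genes and 32.2% of genes of the same length, or 14.2 of 44. A further 6 genes had a peak in 1 or 2 replicates and 13 had none in any. In each replicate 29 of 44 genes (65.9%) had a peak, though not the same 29 genes. The background was 24.9, 22.6 and 19.6% of all genes in replicates 1, 2 and 3, and 42.3, 38.4 and 40.6% at the same length. The share of collagen genes thus lay 23.6, 27.5 and 25.3 percentage points above the length-class share, a mean of 25.5 ± 1.98 points (SD, n = 3). Replicate 1, whose title and source name both give whisker pad, showed the excess by itself.

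The excess over genes of the same length lay mostly in the short collagen genes. Of 18 genes under 100 kb, 10 had a peak in all 3 replicates (55.6%), against 13.9% at the same length. Of 26 genes of 100 kb or more it was 15 (57.7%), against 44.9%. The numbers of peaks in the 44 gene windows were 108, 88 and 95, with a mean of 97.0 ± 10.1 (SD, n = 3), against 66.6 for genes of the same length. A peak in the windows of 2 neighbouring members was counted for both, and 106, 87 and 93 of them were distinct peaks.

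**Figure D1:**
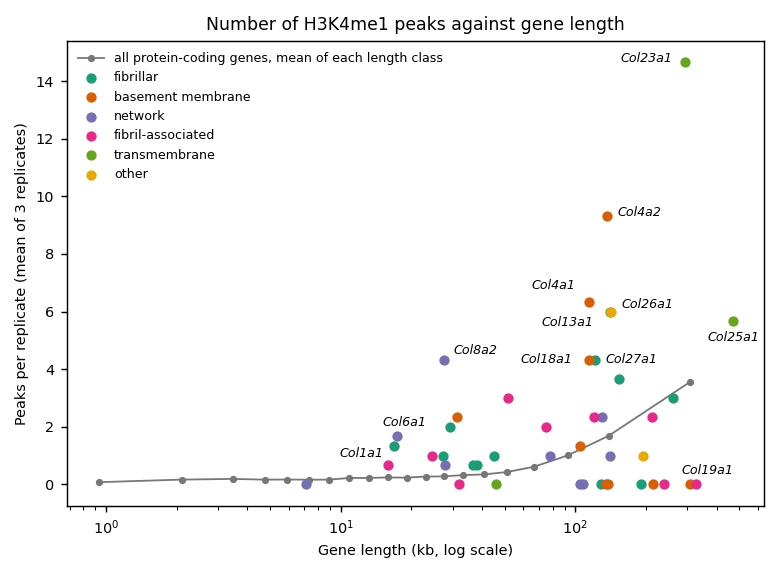
Peaks per replicate (mean of 3) against gene length in kb on a log scale for the 44 collagen genes, coloured by assembly class, with the mean of each length class of all protein-coding genes as a grey line. Col23a1 with a mean of 14.7 peaks and Col4a2 with 9.33 lie farthest above the line, while Col19a1, at 325.6 kb, has 0.

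Genes with a strong peak were also more common than among all genes and among genes of the same length. These shares include the higher share of collagen genes with any peak. Taken singly, the distinct peaks over collagen genes had median percentiles of 61.3, 56.2 and 50.8 in replicates 1, 2 and 3. Of them, 13.2, 16.1 and 7.53% were at or above the 90th percentile. A mean highest percentile of at least 75, with a peak in all 3 replicates, was reached by 16 collagen genes (36.4%), against 7.14% of all protein-coding genes and 16.7% of genes of the same length. At least 90 was reached by 7 of them (15.9%), against 3.58% of all genes and 8.49% at the same length. The median over all 44 genes, with 0 for genes without a peak, was 38.1, whereas the median over all protein-coding genes was 0. Part of this contrast goes with length. The same median was 36.4 in the length class of the longest genes and 10.7 in the class next to it, and many collagen genes belong to these classes. It was 0 in the classes of the shorter collagen genes.

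The 16 genes came from all 6 assembly classes. They were 4 fibrillar, 4 basement membrane, 3 network, 2 fibril-associated and 2 transmembrane genes and 1 other gene.

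**Figure D2:**
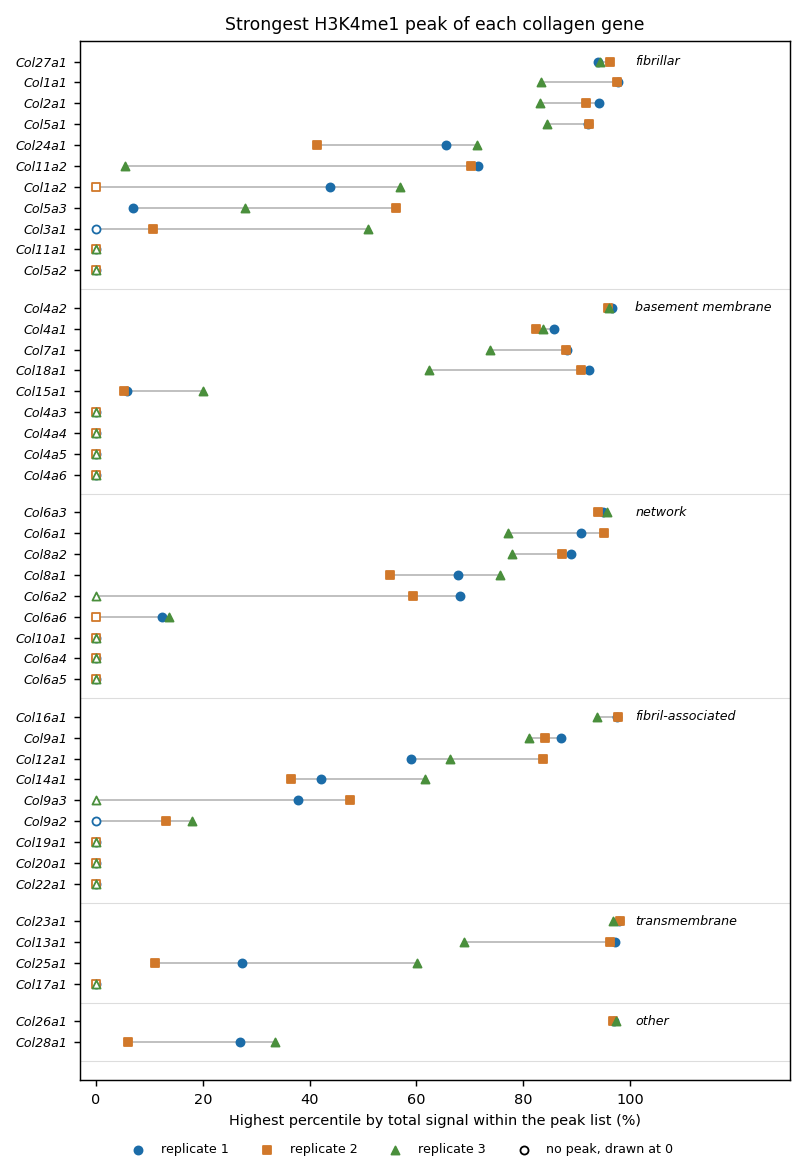
Highest percentile by total signal of any peak in the window of each of the 44 collagen genes, in replicates 1 (circles), 2 (squares) and 3 (triangles), grouped by assembly class; open symbols at 0 stand for no peak. The points of Col23a1, Col26a1, Col4a2 and Col6a3 lie within 2 percentile points of each other, and those of Col11a2 spread from 5.51 to 71.5.

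Among the fibrillar genes, which encode the chains of the load-bearing fibrils, 7 of 11 had a peak in all 3 replicates (3.09 at the share of the same length), 2 had a peak in some and 2 had none. Col27a1, a chain of cartilage fibrils, had highest percentiles of 94.0, 96.3 and 94.4 in replicates 1, 2 and 3, in intron 3. It held 5, 4 and 4 peaks, the highest mean of the class. Replicates differed little for this gene. Col1a1, one of the chains of collagen I in skin and bone, had 97.8, 97.6 and 83.4, in a region of 11.4 kb at chr11:94926068-94937499 that covered the start site and had its highest pileup upstream, at −7.40 kb from the start. In replicate 3 the region held 2 peaks, and that across the start had 80.3. Col2a1 had 94.3, 91.8 and 83.3 in intron 16 and 85.3, 83.3 and 64.4 in intron 1, the latter region reaching over the start site. Col5a1, a chain that limits fibril diameter, had 92.1, 92.4 and 84.5 in intron 4, at chr2:27930137-27937237. In these last 3 genes replicate 3 was the lowest.

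The partners of these chains were less marked. Col1a2, which encodes the other chain of collagen I, had peaks at its start site of 43.8 in replicate 1 and 57.0 in replicate 3, and in replicate 2 the nearest peak lay 13750 bp away. Col3a1, the collagen of distensible tissues such as skin and vessel wall, had peaks in intron 1 of 10.7 and 50.9 in replicates 2 and 3 and none in replicate 1. Col5a2 and Col11a1, partners in collagens V and XI, had none, and the nearest peak to Col11a1 lay more than 1 Mb away in each list (1565983, 1332591 and 1332408 bp). Col3a1 and Col5a2 adjoin on chromosome 1, and the Col3a1 peak did not reach the Col5a2 window.

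The remaining fibrillar genes had peaks in all 3 replicates with wide spreads. Col24a1, a minor fibrillar chain, had 65.5, 41.3 and 71.3, with the strongest peak at the start site in replicates 1 and 2 and in intron 7 in replicate 3. Col11a2, a chain of cartilage collagen XI, had 71.5, 70.2 and 5.51, in a region that also overlapped the neighbouring gene Rxrb. Col5a3 had 6.87, 56.2 and 28.0. For both of these the replicates did not give a common level.

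**Figure D3:**
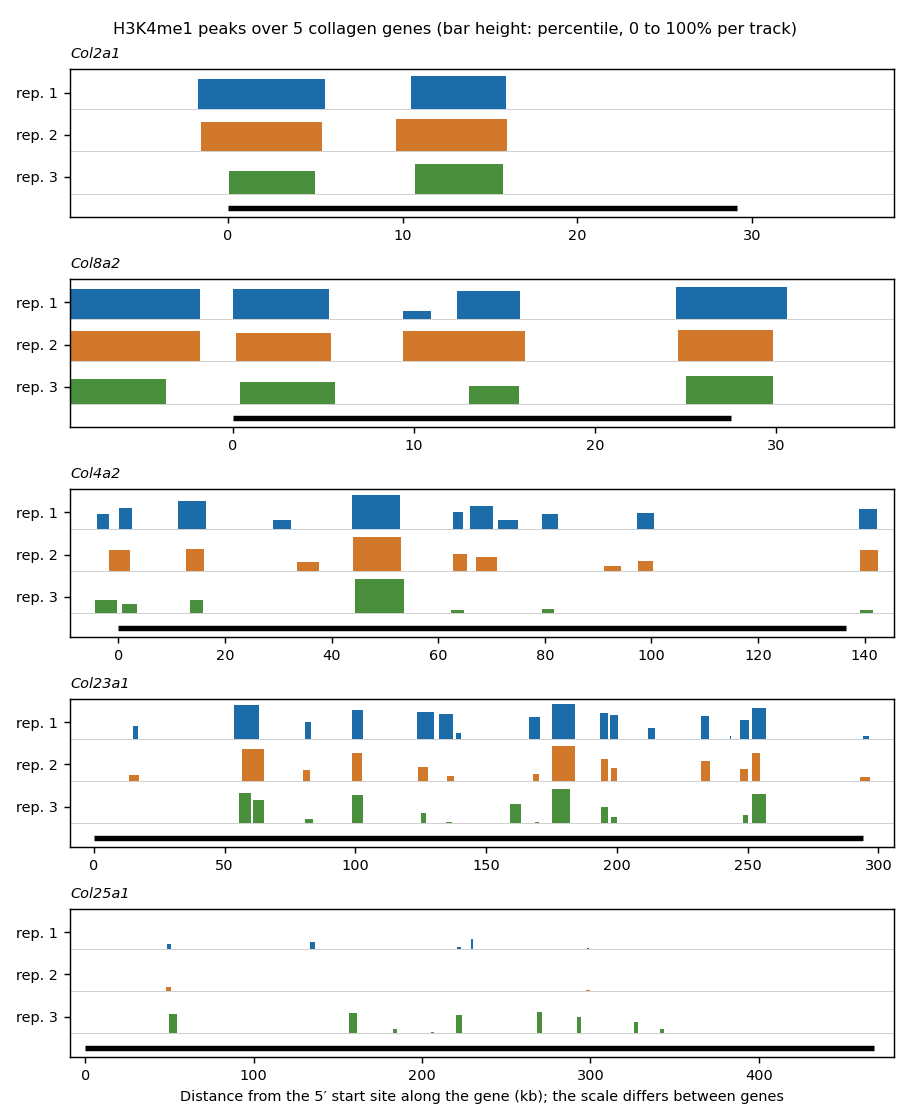
Peaks over Col2a1, Col8a2, Col4a2, Col23a1 and Col25a1 against the distance from the 5′ start site in kb, 1 track for each replicate, with bar heights giving the percentile on a scale of 0 to 100% and a black line for the gene body. Col2a1 has 2 regions in every replicate, whereas Col25a1 has 5, 2 and 10 peaks in replicates 1, 2 and 3.

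Of the 9 basement membrane genes, 5 had a peak in all 3 replicates and 4 had none (3.597 in all 3 at the share of the same length). All 4 without a peak were type IV genes. The type IV genes stand as 3 head-to-head pairs, Col4a1 with Col4a2, Col4a4 with Col4a3 and Col4a6 with Col4a5, so that 1 stretch of DNA can serve both start sites. Col4a1 and Col4a2 encode the chains of every basement membrane, and the other 4 those of specialised membranes such as the adult kidney glomerulus. The first pair overlaps by 22 bases at its annotated starts (chr8:11312805-11312826), the second is parted by 71 bases (chr1:82586850-82586920) and the third by 1308 bases, which are not shown. The plus strand of the first 2 stretches is given because the mark was found around the first and not around the second.
Col4a1 and Col4a2: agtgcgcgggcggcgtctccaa
Col4a4 and Col4a3: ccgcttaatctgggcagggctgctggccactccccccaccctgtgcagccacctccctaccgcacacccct
Their GC contents were 72.7 and 69.0%, against 39.7% for the stretch between Col4a6 and Col4a5.

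Col4a2 held 11, 9 and 8 peaks and Col4a1 8, 5 and 6, means of 9.33 and 6.33 against 1.69 for genes of their length. The strongest Col4a2 peak had percentiles of 96.7, 96.0 and 96.1 in intron 4, 49.0 kb from the start, and a further Col4a2 region in intron 3 had 78.8, 61.9 and 37.5. The strongest Col4a1 peak had 85.8, 82.5 and 83.7 in intron 1, 14.4 kb from the start (chr8:11295458-11301655). In both genes the strongest peak was intronic and alike in the 3 replicates. The region around the shared start (chr8:11308357-11316236) was weaker, at 59.9, 60.5 and 38.7, and was counted for both genes. Of these peaks only that of replicate 2 crossed the start. The peak of 59.9 in replicate 1 lay on the Col4a2 side, and that of 38.7 in replicate 3 on the Col4a1 side. Around Col4a3 and Col4a4 the nearest peak lay 85112 to 86761 bp beyond Col4a4, and around Col4a6 and Col4a5 it lay 183524 to 184184 bp beyond Col4a6.

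The other 3 basement membrane genes were Col18a1, Col7a1 and Col15a1, of which the first encodes a heparan sulfate bearing collagen. Col18a1, which gives rise to endostatin, had highest percentiles of 92.3, 90.8 and 62.5, with 5, 4 and 4 peaks, in replicates 1, 2 and 3. These were not of a single region. The region over its 5′ start had 92.3, 90.8 and 58.5, and that at 14.2 kb from the start had 87.6, 84.6 and 62.5. Col7a1, the collagen of the anchoring fibrils under the epidermis, had 88.2, 88.0 and 73.8 in a region at chr9:108946707-108951354 that overlapped the upstream gene Uqcrc1. These peaks ended at −2.49, −2.27 and −2.23 kb from the start of Col7a1, so its values rest on the flank in all 3 replicates. Peaks over its own start site had 59.5 and 53.6 in replicates 1 and 2, and replicate 3 had none there. Col15a1 had weak peaks of 5.73, 5.28 and 19.99, at different introns in replicate 1 and in the other replicates.

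Of the 9 network genes 4 had a peak in all 3 replicates (2.07 at the share of the same length), 2 had a peak in some and 3 had none. Collagen VI, the beaded microfibril around cells, is made of the Col6a1 and Col6a2 chains with Col6a3 or a related chain. Col6a3 had a single peak across its start site in each replicate, of 11869, 12998 and 11791 bp within chr1:90834250-90847450, with percentiles of 95.0, 94.0 and 95.7. Col6a1 had 90.9, 95.1 and 77.1, in a region at chr10:76722736-76735653 with its highest pileup upstream, at −6.97 kb from the start. Col6a2, its neighbour on chromosome 10, had 68.1 and 59.5 at its start in replicates 1 and 2, and in replicate 3 the nearest peak was 9895 bp away. The Col6a1 region did not reach the Col6a2 window.

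The alternative type VI chains, which stand side by side on chromosome 9, were nearly bare. Col6a4 and Col6a5 had no peak, and Col6a6 had peaks of 12.3 in replicate 1 and 13.7 in replicate 3 at different introns. Col10a1, the marker of hypertrophic cartilage, had none, and the nearest peak in any list lay 87421 bp away.

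Col8a2, a chain of the hexagonal lattice beneath corneal and vascular endothelium, was the most widely covered gene of the family. Peaks covered 48.2 ± 9.18% (SD, n = 3) of its window, with 5, 4 and 4 peaks against 0.28 for genes of its length. Its highest percentiles were 89.0, 87.3 and 77.8, in a region at the 3′ end (chr4:126311262-126317400) that overlapped the neighbour Adprhl2. The regions inside the gene had 85.8, 80.1 and 60.1 in intron 1 and 79.2, 84.2 and 50.4 in intron 2. Its partner chain Col8a1 had 67.8, 54.98 and 75.6, with 2, 1 and 4 peaks. At its start site the 3 replicates had 67.8, 54.98 and 64.3. The 75.6 of replicate 3 lay in intron 2, where replicate 1 had 59.4 and replicate 2 had no peak.

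Of the 9 fibril-associated genes, whose interrupted helices attach to the surface of fibrils, 4 had a peak in all 3 replicates (2.80 at the share of the same length), 2 in some and 3 in none. Col16a1 had percentiles of 97.5, 97.7 and 93.9 in a region of 12.5 kb over its start site (chr4:130039599-130052077), with 5, 3 and 1 peaks in all, the highest mean of the class, although in replicate 3 Col12a1 and Col14a1 had 3. Col9a1, a chain of the cartilage collagen IX, had 87.1, 84.1 and 81.2 in intron 7, 18.4 kb from the 5′ start, where the region covered a further annotated start site (chr1:24193720-24200264). Col12a1 had 59.0 and 83.7 across its start in replicates 1 and 2 and 66.3 in replicate 3, where that peak began 1.05 kb inside the gene, and Col14a1 had 42.1 at its start in replicate 1 and 36.4 and 61.6 in intron 11 in replicates 2 and 3. Both encode long chains of dense connective tissue. In the first pair of genes replicates lay within 6 percentile points, and in the second within 26.

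The other chains of collagen IX had weaker peaks, in 2 replicates each. Col9a3 had 37.8 and 47.6 in replicates 1 and 2, but in different regions. In the region of intron 11 that both shared they had 37.8 and 1.98, and the 47.6 lay in a region of replicate 2 only. Col9a2 had 13.0 and 18.0 in replicates 2 and 3. Col19a1, which stands next to Col9a1, Col20a1 and Col22a1, a collagen of muscle and tendon junctions, had no peak. For Col19a1, whose length class of the longest genes had a peak in all 3 replicates in 53.7%, the nearest peak lay 24067 to 24072 bp away.

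Among the transmembrane genes 3 of 4 had a peak in all 3 replicates (1.66 at the share of the same length). Col23a1 held the most peaks of all collagen genes, 17, 14 and 13, a mean of 14.7 against 3.56 for its length class, the longest genes. Its highest percentiles were 98.0, 98.1 and 96.8, the highest mean of the family, at chr11:51465110-51473960 in intron 2. Further strong regions had 94.6, 90.3 and 84.5 at 57.6 kb from the start and 86.4, 79.8 and 81.6 in intron 5, and none lay within 1 kb of a start site in any replicate. Its peaks were spread along the gene rather than gathered at the start.

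Col13a1, a collagen of muscle end plates and other adhesion sites, had 97.3, 96.4 and 69.0, with 6, 8 and 4 peaks. Its strongest peak in replicates 1 and 2 lay downstream, with its nearest base 4.78 and 4.19 kb past the gene. Replicate 3 had a peak of percentile 97.9 at the same place, but its nearest base was 5.70 kb past the gene, outside the flank, so the 5 kb limit sets the lower value of replicate 3.

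Col25a1, a collagen of developing motor axons and the longest gene of the family at 468.4 kb, had 27.4, 11.1 and 60.1, with 5, 2 and 10 peaks. It was the gene in which replicate 3 most outnumbered the others. Col17a1, a component of hemidesmosomes in surface epithelium, had no peak, and the nearest lay 62766 bp away in replicate 3. Of the 12 surface epithelium markers, 3 had a peak in all 3 replicates, with Grhl3 at 95.5, 96.2 and 91.1, and 4 had none.

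The remaining 2 genes both had a peak in all 3 replicates (0.95 at the share of the same length). Col26a1, a little-studied chain, had 97.1, 96.9 and 97.4, with 7, 6 and 5 peaks. Its pair of strong regions were in intron 3 (97.1, 95.7 and 94.7, chr5:136801584-136812513) and in intron 1 (94.7, 96.9 and 97.4, chr5:136860569-136871277), so that the strongest was not the same region in replicate 1 as in the others. Col28a1 had a single weak peak of 26.9, 6.0 and 33.5 in intron 21.

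**Figure D4:**
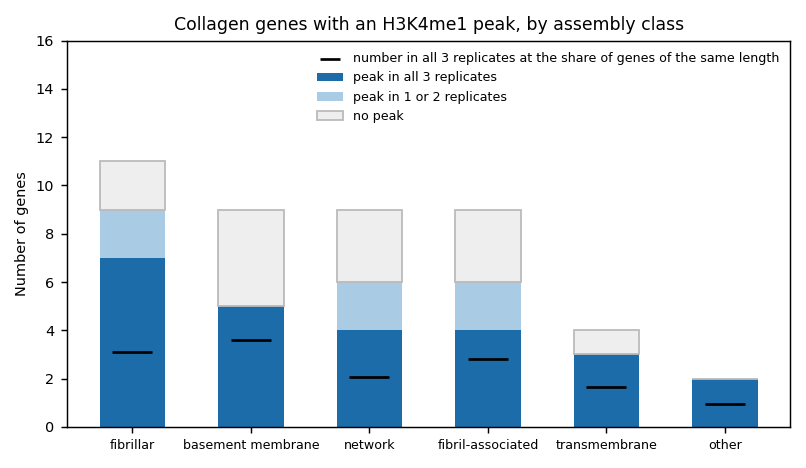
Number of collagen genes in each assembly class with a peak in all 3 replicates (dark), in 1 or 2 (light) and in none (grey), with a line at the number in all 3 replicates that the share of genes of the same length gives. The dark bar stands above the line in every class, by the most in the fibrillar class (7 against 3.09).

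Most regions over collagen genes had their highest pileup in an intron. The peaks over these genes formed 124 distinct regions. All 3 replicates contributed to 59 of them (47.6%), 2 replicates to 28 and a single replicate to 37. Over the whole series it was all 3 replicates for 46.3% of 19246 regions. The highest pileup was in an intron in 98 of the 124 regions, 20 of them intron 1, in an exon in 4, upstream in 10, downstream in 8, and in the gene body but outside the principal transcript in 4. The share of the windows that is intron and the same counts over other genes were not computed. The number in introns therefore cannot tell whether collagen genes differ from other genes.

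Start sites often had a peak nearby, but the highest pileup seldom lay close to them. A peak lay within 1 kb of a start site in all 3 replicates at 16 genes (36.4%), against 6.15% of all genes and 10.1% of genes of the same length, and in at least 1 replicate at 25 genes, against 15.9 and 22.7%. Of the 124 regions, each a union over the 3 lists, 25 covered a start site. Single replicates can still leave it bare, as replicate 1 did at the 5′ start of Col5a1. In only 9 of the 124 was the highest pileup within 1 kb of a start site. The shares over all regions of the series were not computed. Strongest peaks away from the start are exemplified by Col23a1 and Col4a2, and peaks across the start by Col6a3.

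The differences between replicates moved with the GC content of the regions. Among the 59 regions with a peak in all replicates, replicate 3 had the lower percentile than replicate 2 in 43 and the higher in 16. The difference of replicate 3 from replicate 2 fell with GC content (Spearman's rho −0.62 across 59 regions), with a median of 0.48 points in 29 regions below 50% GC and −18.2 points in 30 regions at or above it. The difference of replicate 3 from replicate 1 gave a rho of −0.42, with 48 regions lower and 11 higher in replicate 3, and that of replicate 1 from replicate 2 gave −0.40. Over all 8916 regions of the series the values were −0.75, −0.67 and −0.28 in the same order, so the relation was not particular to collagen genes. There replicate 3 was lower than replicate 2 in 4135 regions and higher in 4781, at a median GC content of 47.3% against 50.1% for the collagen regions. Regions share libraries and base composition and are not independent, so no p is given. The lower values of replicate 3 in the regions of Col1a1, Col11a2 and Col6a1 and in that over the Col18a1 start (51.6 to 57.7% GC) stand beside this relation. In these regions of Col1a1, Col18a1 and Col6a1, replicate 3 also held 2 peaks where replicate 2 held 1, and the percentile is that of the stronger peak alone. The highest Col18a1 value of replicate 3 came from another region, of 53.1% GC, with 1 peak in each replicate. Neither the part of GC content nor that of the divided peaks in these values was tested.

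**Figure D5:**
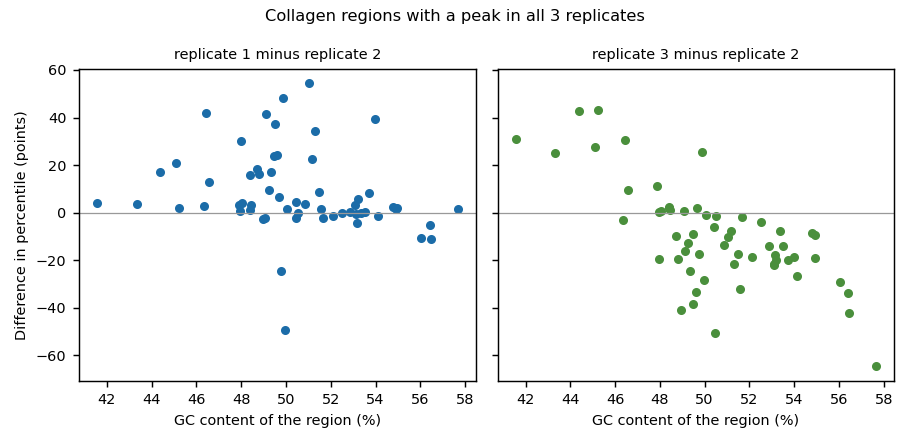
Difference in percentile points between replicates 1 and 2 (left) and replicates 3 and 2 (right) against the GC content in percent of the 59 collagen regions with a peak in all 3 replicates. Differences of replicate 3 run from above 0 at low GC to their lowest value at 57.7% GC, the Col11a2 region.

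Regions found in a single replicate followed the same order. The 16 regions with a peak in replicate 3 only had a median GC content of 41.6%, whereas the 14 of replicate 1 only had 50.2% and the 7 of replicate 2 only had 51.6%. The 17 regions of replicates 1 and 2 without replicate 3 had 52.3%, and those in all replicates 50.1%. Of the 16, 8 lay in Col25a1, at 37.3 to 43.8% GC.

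Genes that act on collagens were given as lists. Of 28 collagen maturation genes, 13 had a peak in all 3 replicates (5.92 at the share of the same length). Serpinh1, the collagen chaperone of the endoplasmic reticulum, had 98.7, 98.6 and 97.6, and Pcolce, an enhancer of procollagen cleavage, had 96.6, 96.2 and 90.4. The lysyl hydroxylase Plod2 had 86.8, 75.1 and 84.9 and the cross-linking oxidase Loxl2 88.8, 85.7 and 84.6. The prolyl hydroxylases were divided. P4ha2 had 91.6, 88.0 and 86.3, P4ha3 had 91.3, 89.2 and 74.9 and P3h2 had 88.2, 79.7 and 98.2. P3h3 had a peak in replicates 1 and 2 only, and P4ha1 and P3h1 had no peak. Serpinh1 had the highest mean percentile among the genes in the lists of maturation, receptors, fibril partners, basement membrane partners and cartilage matrix.

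Of 7 collagen receptor genes, 3 had a peak in all replicates (1.83 at the same length). They were Itga11, an integrin subunit of fibroblasts (93.4, 92.3 and 86.5), and the receptor kinases Ddr1 (95.1, 94.5 and 74.8) and Ddr2 (80.3, 65.0 and 81.9), while Itgb1 and Itga1 had none.

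Of 12 fibril partners, 8 had a peak in all replicates (2.49 at the same length), led by the proteoglycan gene Bgn at 91.9, 96.8 and 82.8. Postn, a matricellular protein of connective tissue, had 84.3, 73.2 and 92.6, and Fmod and Thbs2 had no peak. Of 14 basement membrane partners it was 11 (4.35 at the same length). The perlecan gene Hspg2 had 97.7, 99.1 and 91.3 and the agrin gene Agrn 97.2, 97.0 and 84.1. Among laminin chains Lama4 had 80.1, 81.0 and 81.4.

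Of 8 cartilage matrix genes, Cnmd (chondromodulin) alone had a peak in all 3 replicates (1.05 at the same length), with 84.2, 79.7 and 43.9. Peaks were found at 7, 4 and 1 of the 8 in replicates 1, 2 and 3, against 23.3, 21.0 and 16.6% of genes of the same length, and Acan, the gene of the main cartilage proteoglycan, had none.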

How the data were processed

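H3K4me1 CUT&Tag was analysed in 3 whisker pad libraries. The submitters' processing notes name Bowtie2 2.3, SAMtools 0.1.19, bedtools, SEACR 1.3 and mm10. The authors called peaks for each replicate with SEACR in its stringent mode, using no IgG control, and retained the top 1% of blocks of signal. Each deposited list gives the total and maximum signal of a peak, in pileup units without scaling to depth, so percentiles within a list were compared. The methods state 1 nominal depth for all samples, but the lists hold no read numbers, and depth did not enter the analysis.

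Lists held 16788, 12969 and 13998 peaks in replicates 1, 2 and 3. Genes came from GENCODE vM21 on chromosomes 1 to 19 and X, and sequence from the RefSeq GRCm38 assembly; no peak ended past a chromosome end. A gene's percentile is its highest, and is 0 without a peak. Values were written out for genes with a peak in all 3 replicates and a mean percentile of at least 75, for genes with a peak in some replicates, and for the genes with most peaks in a class. Lists of maturation, receptor, fibril partner, basement membrane partner, cartilage matrix and cell type marker genes were counted in the same way. Members and lists were chosen with earlier results of these data known. Python 3.11.15, numpy 2.4.6, pandas 2.3.3, pysam 0.24.0 and matplotlib 3.10.9 were used, and the counting was tested on simulated data. Alternatives changed flanks, length classes, overlap, list size, joining of peaks, signal measure and start-site window, and left out each replicate. The sequence of 1 region and the name of 1 marker gene are not reported here.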

Additional observations from a re-analysis of the deposited data

How the results depend on the processing

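Of 111 alternative values for 12 results, 96 stayed within the spread between replicates, or within 1.5 times for counts, 15 moved further and 0 changed sign. The percent of collagen genes with a peak (65.9%, equal in all replicates, so that any difference counts as a move) was 65.2% without flanks, 67.4% with 20 kb flanks, 49.2% with the stronger 50% of each list, 53.8% with the strongest 10000 peaks and 63.6% where the highest pileup had to lie in the window. The excess over genes of the same length (25.5 points) was 21.9 points both at 20 kb and for the stronger 50%, and 21.2 for the strongest 10000 peaks. With the stronger 50% of each list there were 52.3 peaks per replicate over collagen genes in place of 97.0, the median highest percentile was 20.3 in place of 38.1, fibrillar genes with a peak in all 3 replicates numbered 4 in place of 7, and the other collagens 1 in place of 2, which was also 1 with the strongest 10000 peaks. With 20 kb flanks the median highest percentile was 49.1. Only 5 genes in place of 16 had the highest pileup itself within 1 kb of a start site in all 3 replicates. Fewer peaks and wider or narrower windows change these values by construction.

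Leaving out each replicate in turn gave 27 genes with a peak in every remaining replicate, an excess of 24.5 to 26.4 points, 91.5 to 101.5 peaks per replicate and a median highest percentile of 36.7 to 41.1. Start-site genes numbered 17 to 21. No paired analysis was possible because only the 3 H3K4me1 samples, a single group, were analysed and the IgG samples with the same numbers were not. The lists hold no read depth and no background, so a gene without a peak is below the top 1% of signal blocks and not shown to lack the mark.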
